A study of Mus musculus with 23 samples.

Results

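The 8 genes described here are Ada, Nt5e, Enpp3, Slc28a1, Slc28a2, Pnp, Xdh and Creb3l3. They were chosen by symbol, as genes that enterocytes of the villus tip are known for, and all but Creb3l3 serve purine and nucleoside handling. The choice was made with earlier results of these data known, so counts of these genes describe these data only. They are 8 of the 19215 entries of the deposited expression table. Small intestine RNA of male ICR mice was sequenced in 23 libraries. Each library was treated as 1 mouse, which the study's methods do not state. All mice of the 8 groups had received busulfan (40 mg/kg body weight), an alkylating anticancer drug that damages the intestinal mucosa, so no group without busulfan was compared. Sa mice then received saline. Con-FMT, A10-FMT and A100-FMT mice received a transfer of gut microbiota (FMT, small intestinal luminal contents pooled from donors) from mice dosed with vehicle, with 10 mg/kg alginate oligosaccharide (AOS) or with 100 mg/kg AOS, respectively. In the study's methods, donors were dosed for 3 weeks, recipients were 3 weeks old at busulfan and 5 weeks old at sampling, and FMT was given daily for 1 week. The sample labels divide the libraries by a code into set 1 and set 2, each with the 4 treatments. The meaning of that code is not given in the sources used here, and the schedule could be assigned to neither set with certainty. Each group had 3 libraries except Sa of set 1, which had 2.

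Values were FPKM, a fragment count scaled to transcript length and to all mapped fragments, and the depth of the libraries is unknown. Summed FPKM ranged from 556466 to 612482 in 22 libraries and was 667957 in Sa set 1 replicate 3. That library also correlated least with the others, with r of 0.944 to 0.965 over the genes tested, against 0.968 to 0.991 between the other libraries. Its title and its description named different columns of the table. Its values were taken by title, and counts that rest on Sa of set 1 are given with and without it. The epithelial keratin genes Krt8 and Krt19 were abundant (mean 2533 and 2385 FPKM), and 8 epithelial marker genes summed to 6864 to 9856 FPKM. Smooth muscle genes Acta2, Des, Myh11, Actg2 and Cnn1 were at or near 0 in all libraries, at most 0.09 FPKM. The smooth muscle gene Tagln was at 0.75 to 1.83 FPKM, and the endothelial gene Pecam1 was at most 0.2 FPKM. Mylk, a kinase gene also used in smooth muscle, was at 42.6 to 78.3 FPKM. The immune cell genes Itgam and Cd8a were at 3.84 to 6.57 and 1.18 to 6.57 FPKM.

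Enterocytes are born in the crypts, move up the villus within days and are shed at the tip, and they change the genes they use on the way. Near the tip, enterocytes are known for a programme of nucleotide breakdown at the brush border. In it, extracellular ATP and other nucleotides are cut to nucleosides, nucleosides are taken up, and adenosine is converted stepwise to inosine, hypoxanthine, xanthine and urate. In bulk tissue, fewer cells of a type and less RNA per cell cannot be told apart.

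By role, Enpp3 encodes an ectonucleotide pyrophosphatase that cuts extracellular ATP and nucleotide sugars, and Nt5e encodes CD73, the 5′-nucleotidase that turns AMP into adenosine. Slc28a1 and Slc28a2 encode the sodium-coupled nucleoside carriers CNT1, which prefers pyrimidines, and CNT2, which prefers purines. Ada encodes adenosine deaminase, Pnp purine nucleoside phosphorylase and Xdh xanthine dehydrogenase, the enzyme that ends the path in urate. Creb3l3 is of another kind. It encodes CREB-H, a transcription factor anchored in the endoplasmic reticulum membrane and known for the control of lipid metabolism in liver and intestine.

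The genes lie apart in the mouse genome (GRCm38, the build named mm10 in the submitters' processing notes). Ada lies at chr2:163726571-163750239 and Slc28a2 at chr2:122426357-122461152, and the others are on chromosomes 7 (Slc28a1), 9 (Nt5e), 10 (Enpp3 and Creb3l3), 14 (Pnp) and 17 (Xdh). The bases just upstream of the RefSeq start (GRCm38.p6) are shown for Ada, Enpp3 and Slc28a2, the 3 tested genes whose values spanned the widest fold range over the libraries and, for Ada and Enpp3, each closely like Slc28a2. Each is read 5′ to 3′ on the strand of the gene, with capitals for matches to the motifs searched. That of Ada (chr2:163750240-163750489, minus strand) is 250 bases long. That of Slc28a2 (chr2:122426185-122426356, plus strand) is 172 bases long, since the 78 bases nearest the start lie within the RefSeq span of the gene, which begins further upstream than this start. That of Enpp3 (chr10:24836226-24836445, minus strand) is 220 bases long, since the 30 bases nearest the start lie in an exon in GENCODE.
Ada: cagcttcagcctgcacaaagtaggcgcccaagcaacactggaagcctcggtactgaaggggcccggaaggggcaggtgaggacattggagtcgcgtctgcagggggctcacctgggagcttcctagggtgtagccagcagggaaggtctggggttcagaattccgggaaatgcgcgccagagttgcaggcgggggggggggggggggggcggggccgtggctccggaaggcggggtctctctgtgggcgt
Enpp3: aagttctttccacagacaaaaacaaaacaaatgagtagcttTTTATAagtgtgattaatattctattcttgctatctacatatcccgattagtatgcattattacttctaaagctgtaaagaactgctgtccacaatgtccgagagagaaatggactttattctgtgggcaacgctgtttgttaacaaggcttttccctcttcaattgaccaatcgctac
Slc28a2: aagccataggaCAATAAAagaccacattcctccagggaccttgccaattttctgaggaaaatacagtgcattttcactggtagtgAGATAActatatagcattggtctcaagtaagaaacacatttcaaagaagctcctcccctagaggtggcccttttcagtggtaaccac

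Of the 8 genes, 7 matched a RefSeq promoter. The motifs searched were the TATA box TATAAA, the cyclic AMP response core TGACGT, the HNF4 motif CAAAGTC, the GATA motif AGATAA and the CDX2 motif CAATAAA, on both strands in the 250 bases before each start, where no 2 matches overlapped. Slc28a2 held CAATAAA at position -239 and AGATAA at -165, counted back from the start. The window of Enpp3 held TATAAA on the opposite strand at -209. The first of 2 Creb3l3 promoters held CAAAGTC on the opposite strand at -178 and AGATAA at -138. No motif matched in the windows of Ada, Nt5e, Slc28a1 and Pnp. Over all 32851 RefSeq promoters, the share holding a match was 12.4% for TATAAA, 6.47% for TGACGT, 3.84% for CAAAGTC, 9.99% for AGATAA and 4.2% for CAATAAA. A match of these letters is a description only.

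Sequence shared with other genes limits some of the values. Of the 31-base words of the longest GENCODE M21 transcript, 51% were shared by Slc28a2 with its neighbour Slc28a2b (Gm14085 in that annotation), and 32% were shared by Pnp with other genes. The share was 17% for Xdh, 2.32% for Enpp3 and 0% for Ada, Nt5e, Slc28a1 and Creb3l3. The table lists Slc28a2b separately, with group means from 0.33 FPKM in A10-FMT set 2 to 1.69 FPKM in A10-FMT set 1, the same 2 extreme groups as Slc28a2. Reads of such genes may have been divided between the copies, and the counting is not given in the sources used here.

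Xdh and Pnp were the most abundant of the 8 genes, with means of 202 and 196 FPKM over the 23 libraries, followed by Creb3l3 with 83.2 FPKM. Ada and Enpp3 were intermediate (27.6 and 18.3 FPKM), and the nucleoside carriers Slc28a1 and Slc28a2 were low (6.7 and 3.15 FPKM). Nt5e had a mean of 0.884 FPKM and a highest value of 2.38 FPKM, so the gene was barely detected in this tissue. Over the libraries, the highest value was 1.41 times the lowest for Pnp, 2.21 times for Xdh and 2.38 times for Creb3l3, the 3 most abundant genes. It was 5.91 times for Ada, 5.13 times for Enpp3, 3.81 times for Slc28a1 and 5.65 times for Slc28a2.

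A10-FMT held both ends of the scale. The highest group mean belonged to A10-FMT of set 1 for 7 of 8 genes, and the lowest to A10-FMT of set 2 for 5 of 8, namely Ada, Enpp3, Slc28a1, Slc28a2 and Creb3l3. For Xdh, Pnp and Nt5e the lowest group mean was that of Sa set 1. For Xdh and Nt5e this place rested on replicate 3 of that group (136 and 0.2 FPKM). Its replicate 1, at 177 and 0.61 FPKM, was above the means of A10-FMT set 2 (169 and 0.587 FPKM). Replicate 3 of A10-FMT set 1 alone held the highest value of all libraries for 6 of the 8 genes.

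**Figure D1:**
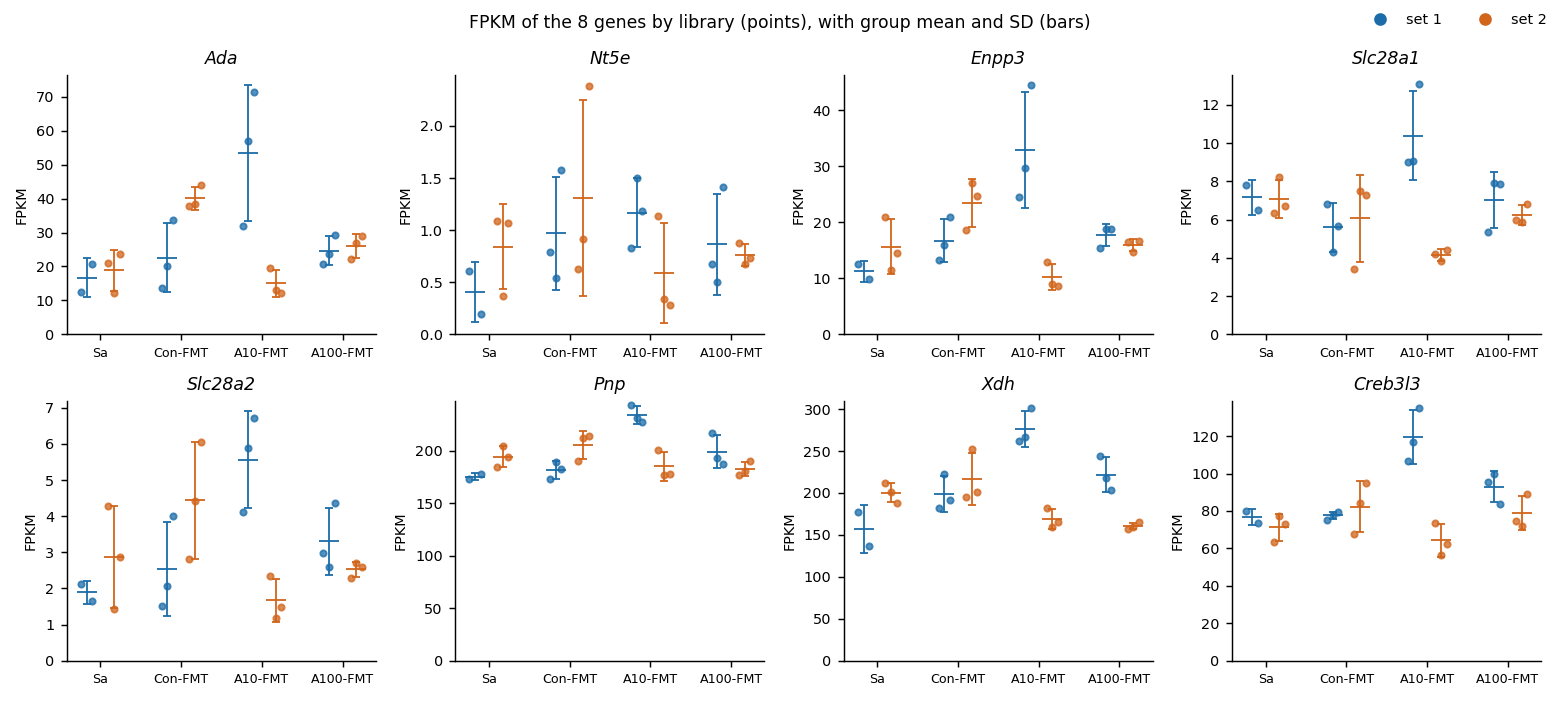
FPKM of each of the 8 genes (vertical axis) in the 4 treatments (horizontal axis), with set 1 in blue and set 2 in orange. Points are libraries and bars the group mean and SD, with 3 libraries per group and 2 in Sa of set 1; in 7 of 8 panels the blue A10-FMT group has the highest mean, and Nt5e is the exception.

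At the brush border, Enpp3 measured 24.5, 29.7 and 44.5 FPKM in A10-FMT set 1, against 13.3, 16.0 and 20.9 in Con-FMT set 1 and 12.6 and 9.97 in Sa set 1. In set 2 it measured 13, 9.06 and 8.68 FPKM in A10-FMT, 18.7, 27.0 and 24.6 in Con-FMT, and 21.0, 11.4 and 14.6 in Sa. A10-FMT was thus above all other libraries of set 1 and below all Con-FMT libraries of set 2. A100-FMT was in between, with 15.5, 18.8 and 18.8 FPKM in set 1 and 16.5, 14.6 and 16.7 in set 2. In order of group means, A10-FMT set 1 (32.9 FPKM) and Con-FMT set 2 (23.4) led and were apart by less than their SDs. Con-FMT set 2 was beyond the SDs from the next group, A100-FMT set 1 (17.7), and all further neighbours in the order were within them.

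Nt5e followed no such pattern beyond its spread. It measured 0.83, 1.5 and 1.18 FPKM in A10-FMT set 1 and 1.14, 0.34 and 0.28 in A10-FMT set 2, and its highest group mean was 1.31 ± 0.938 FPKM (SD, n = 3) in Con-FMT set 2. A10-FMT set 1 was above both Sa libraries of set 1 (0.61 and 0.2), and it overlapped Con-FMT set 1 (0.79, 0.54 and 1.58). No neighbours in the order of its 8 group means differed by more than their SDs. With a mean below 1 FPKM it was not among the 11337 genes tested. With all 19187 genes above 0 tested, limma called it in 0 of 24 comparisons.

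Of the carriers, Slc28a2 measured 4.11, 5.88 and 6.72 FPKM in A10-FMT set 1, 1.52, 2.08 and 4.0 in Con-FMT set 1 and 2.12 and 1.66 in Sa set 1. In set 2 it measured 2.34, 1.19 and 1.48 FPKM in A10-FMT, 2.83, 4.43 and 6.05 in Con-FMT and 4.27, 1.44 and 2.88 in Sa. A10-FMT was again above all Sa and Con-FMT libraries in set 1 and below all Con-FMT libraries in set 2. Slc28a1 measured 9.0, 9.08 and 13.1 FPKM in A10-FMT set 1 and 4.2, 3.83 and 4.43 in A10-FMT set 2. Between these ends its other 6 groups had means from 5.59 to 7.16 FPKM and overlapped, and Con-FMT (6.82, 4.29 and 5.67 FPKM in set 1) was not above Sa (7.8 and 6.52). Only these ends of the order, A10-FMT of set 1 and of set 2, were apart from their neighbours by more than the SDs.

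Of the enzymes inside the cell, Ada varied most. It measured 32.0, 56.8 and 71.4 FPKM in A10-FMT set 1, 13.8, 20.3 and 33.6 in Con-FMT set 1 and 12.6 and 20.8 in Sa set 1. In set 2, it measured 19.7, 13.1 and 12.3 FPKM in A10-FMT, 37.7, 38.4 and 43.9 in Con-FMT and 21.0, 12.1 and 23.5 in Sa. Con-FMT of set 2 was above all Sa and A10-FMT libraries of its set, whereas in set 1 Con-FMT overlapped both. In the order of its group means, only Con-FMT set 2 (40.01 FPKM) and the next group, A100-FMT set 2 (26.0), were apart by more than their SDs. A100-FMT was close between the sets, with 20.8, 23.8 and 29.2 FPKM in set 1 and 22.2, 26.9 and 29.0 in set 2.

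Pnp and Xdh moved over a narrower range. Pnp measured 244, 231 and 227 FPKM in A10-FMT set 1, above all 20 other libraries, where the highest value was 217. Xdh measured 262, 266 and 301 FPKM in A10-FMT set 1, also above all others, and 182, 159 and 166 in A10-FMT set 2. Xdh was as low in A100-FMT set 2 (157, 160 and 165 FPKM) as in A10-FMT set 2, while Sa of set 2 measured 212, 201 and 188. For both genes and for Creb3l3, A10-FMT set 1 was beyond the SDs from the group next in order.

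Creb3l3 measured 107, 117 and 135 FPKM in A10-FMT set 1 and 73.8, 56.7 and 62.2 in A10-FMT set 2. In set 1, Con-FMT (75.4, 78.0 and 79.4 FPKM) and Sa (79.9 and 73.7) were alike in level, and A100-FMT (95.3, 99.7 and 84.0) was above both without overlap. In set 2, its Sa, Con-FMT and A100-FMT libraries overlapped.

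The comparison of A10-FMT with Con-FMT set recipients of contents from AOS-dosed donors beside recipients of contents from vehicle-dosed donors. Contents were pooled within each donor group, so dosing of the donors cannot be told apart from the pool that was given. In set 1, all 7 genes tested rose in A10-FMT against Con-FMT, where 5.2% of the 11337 genes tested rose (limma on log2(FPKM + 1) with Benjamini-Hochberg adjusted p under 0.05). For 6 of the 7, the libraries of the groups did not overlap, and Ada overlapped. How many of all genes tested had no overlap was not computed, here or in the comparisons below. The median change of the 7 was 0.79 on the log2 scale, against -0.08 for all genes tested. Ada had the largest change, 1.22 ± 0.31 (log2, SE, adjusted p = 0.0137), a fold of 2.33. Slc28a2 rose by 0.94 ± 0.29 (adjusted p = 0.0325), Enpp3 by 0.91 ± 0.22 (adjusted p = 0.0111) and Slc28a1 by 0.79 ± 0.21 (adjusted p = 0.0174). The abundant genes rose less on the log2 scale, Creb3l3 by 0.61 ± 0.12 (adjusted p = 0.00357), Xdh by 0.47 ± 0.11 (adjusted p = 0.00733) and Pnp by 0.37 ± 0.07 (adjusted p = 0.00195). Without A10-FMT set 1 replicate 3, 3 of the 7 genes were called, and without Con-FMT set 1 replicate 1, 4 were. Without Con-FMT set 1 replicate 2 or A10-FMT set 1 replicate 2, 5 were. All 7 changes kept their direction with any 1 library left out.

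In set 2 the same comparison gave 7 changes below 0 with a median of -0.40. Only Enpp3 fell past the threshold (-1.12 ± 0.22, adjusted p = 0.0399), where 0.37% of all genes fell. Ada (-1.38 ± 0.31, adjusted p = 0.0583) and Slc28a2 (-1.01 ± 0.29, adjusted p = 0.137) did not pass. For Ada, Enpp3, Slc28a2 and Xdh, A10-FMT was below Con-FMT without overlap. In limma 6 of 7 genes were at an unadjusted p under 0.05, as were 1348 of the 11337 genes tested. No call was left without any 1 of 9 libraries, which were replicate 2 or 3 of Con-FMT, A10-FMT or A100-FMT of set 2, replicate 3 of Sa set 2 and replicate 2 of Con-FMT or A100-FMT of set 1. There were 2 calls without either Sa library of set 1 or replicate 1 of A10-FMT of set 1 or set 2.

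The change between A10-FMT and Con-FMT differed between the sets for all 7 genes tested, in a contrast chosen after the data had been seen. The change in set 2 minus that in set 1 was lowest for Ada (-2.60 ± 0.44, adjusted p = 0.00084) and Enpp3 (-2.04 ± 0.32, adjusted p = 0.00049) and nearest to 0 for Pnp (-0.52 ± 0.09, adjusted p = 0.00137), with a median of -1.19. Of all genes tested, 6.7% were called lower in this contrast. The count stayed at 7 when each of the 23 libraries was left out in turn. A scaling by trimmed means moved the median of all genes in this contrast from 0.13 to 0.0048 and left all 7 genes called.

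A10-FMT of the 2 sets compared directly, also chosen after the data had been seen, showed 7 genes lower in set 2, all without overlap of the libraries, where 8.62% of all genes were lower. Ada was at 0.304 times its level in set 1, Enpp3 at 0.337, Slc28a2 at 0.406, Slc28a1 at 0.458, Creb3l3 at 0.541, Xdh at 0.613 and Pnp at 0.79 times, each as a fold of FPKM + 1. What else differed between the sets besides the code cannot be told apart from the set. Averaged over the 4 treatments, only Creb3l3 was lower in set 2 (-0.29 ± 0.06, adjusted p = 0.0176), where 2.62% of all genes were lower, and 2 genes were called without Sa set 1 replicate 3, A100-FMT set 1 replicate 3, Con-FMT set 2 replicate 2 or A10-FMT set 2 replicate 1. With array quality weights, 0 were called in limma.

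**Figure D2:**
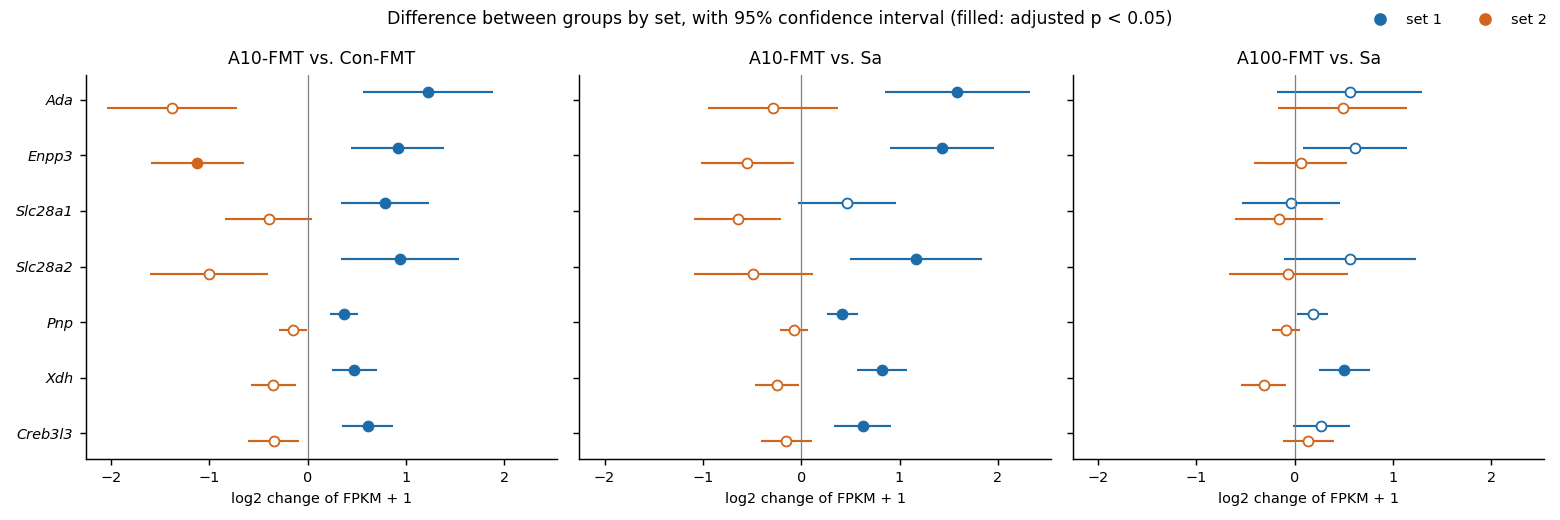
Log2 change of FPKM + 1 (horizontal axis) of the 7 genes tested (vertical axis), from left to right for A10-FMT vs. Con-FMT, A10-FMT vs. Sa and A100-FMT vs. Sa. Points are limma estimates with 95% confidence intervals, filled where the adjusted p was under 0.05, set 1 in blue and set 2 in orange; in the first panel the 7 blue points are above 0 and the 7 orange points below it.

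Against Sa, the mice given busulfan and saline, A10-FMT of set 1 was higher in 6 of 7 genes tested, where 13.6% of all genes rose. The A10-FMT libraries of all 7 genes were above both Sa libraries. Ada was higher by 1.59 ± 0.35 (log2, SE, adjusted p = 0.00368), Enpp3 by 1.43 ± 0.25 (adjusted p = 0.0011), Slc28a2 by 1.17 ± 0.32 (adjusted p = 0.0119) and Xdh by 0.82 ± 0.12 (adjusted p = 0.000584). Creb3l3 (0.62 ± 0.14, adjusted p = 0.00371) and Pnp (0.42 ± 0.08, adjusted p = 0.00126) also rose, and Slc28a1 did not pass (0.47 ± 0.24, adjusted p = 0.135). Without Sa set 1 replicate 3, 4 genes were called, with the lone Sa library assumed to vary like the other groups, and with the column its description names, 7 were. With array quality weights, or with these 2 groups fitted alone, 0 were called in limma.

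In set 2, A10-FMT against Sa gave 7 changes below 0 and 0 called, where 0.423% of all genes were called. Of the 7, 3 were at an unadjusted p under 0.05 in limma, as were 1627 of the 11337 genes tested. The lowest changes of the 7 were those of Slc28a1 (-0.65 ± 0.21, adjusted p = 0.176) and Enpp3 (-0.55 ± 0.22, adjusted p = 0.278). The difference of the A10-FMT effect between the sets was called lower in set 2 for all 7 genes (median -1.11), where 10.6% of all genes were. It was largest for Enpp3 (-1.98 ± 0.34, adjusted p = 0.00077) and Ada (-1.87 ± 0.47, adjusted p = 0.0073). With array quality weights, which gave both Sa libraries of set 1 a weight of 0.0859, 0 were called in limma. Without Sa set 1 replicate 3, 6 were.

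FMT from vehicle-dosed donors was compared with Sa to show the change without AOS dosing of donors. In the study's methods the pooled contents were frozen in glycerol, while Sa mice received saline. The transferred microbiota thus cannot be told apart from the pool and what it was stored in. In set 1, Xdh rose in Con-FMT (0.35 ± 0.12, adjusted p = 0.0426) and the other 6 did not pass, where 17.7% of all genes rose, so that 1 of 7 was near the background. This call was lost without Sa set 1 replicate 3, any 1 of the Con-FMT libraries of set 1, replicate 2 of A100-FMT in set 1 or set 2, Sa set 2 replicate 2 or A10-FMT set 2 replicate 3. In set 2, limma called 0 of 7, where 0.0353% of all genes were called. An unadjusted p under 0.05 was reached by 2 of 7 and by 651 of the 11337 genes tested. Ada of set 2 was above all Sa libraries and 1.09 ± 0.31 higher, with an adjusted p of 0.399. The difference between the sets was at an unadjusted p under 0.05 in limma for 0 of 7 genes, against 3893 of the 11337 genes tested. It was called for 0 of 7, where 0.00882% of all genes were called. Without Sa set 1 replicate 3 the count was 0 and without replicate 1 it was 1. The interval of the difference for Ada ran from -0.26 to 1.72.

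A100-FMT of set 1 against Sa had fewer of the 7 genes called than A10-FMT. Xdh rose by 0.51 ± 0.12 (adjusted p = 0.00981), where 22% of all genes rose, so that 1 of 7 was below the background. Enpp3, Slc28a2, Pnp, Xdh and Creb3l3 were above both Sa libraries. The call of Xdh was lost without Sa set 1 replicate 3, and 2 genes were called without Sa set 1 replicate 1 or A10-FMT set 1 replicate 3. In set 2 limma called 0 of 7, where 0.0353% of all genes were called. An unadjusted p under 0.05 was reached by 1 of 7 and by 1606 of the 11337 genes tested. For Xdh the change in set 2 (-0.32 ± 0.11, adjusted p = 0.206) was lower than that in set 1 by 0.82 ± 0.16 (adjusted p = 0.00738 for the difference). Of all genes, 13.5% were lower, so that 1 of 7 was near the background. For this difference 2 genes were called without A100-FMT set 1 replicate 3 or replicate 1 of Sa, Con-FMT or A10-FMT of set 2. Without Sa set 1 replicate 3 the count was 1, and with array quality weights or with groups fitted alone it was 0 in limma.

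Between the doses, Enpp3 (-0.82 ± 0.22, adjusted p = 0.0414) and Pnp (-0.23 ± 0.07, adjusted p = 0.0478) were lower in A100-FMT than in A10-FMT of set 1, where 1.71% of all genes were lower. All 7 changes were below 0 at an unadjusted p under 0.05, which 2624 of the 11337 genes tested reached in limma in either direction. For 6 of the 7 the libraries did not overlap. The change of Ada was -1.03 ± 0.31 with an adjusted p of 0.0609. Both calls were lost without replicate 2 or 3 of A10-FMT or A100-FMT of set 1, Con-FMT set 1 replicate 2, Sa set 2 replicate 3 or replicate 2 of A10-FMT or A100-FMT of set 2. With 9 other libraries left out in turn 1 call was left, and 4 genes were called without Sa set 1 replicate 1 or 3. In set 2, 0 of 7 were called in limma, where 0.00882% of all genes were called, and 5 of the 7 changes were above 0. An unadjusted p under 0.05 was reached by 4 of 7 and by 808 of the 11337 genes tested. Con-FMT and A100-FMT differed by 0 calls in set 1 (0.406% of all genes called) and in set 2 (0% of all genes). In set 1, 0 of 7 reached an unadjusted p under 0.05, against 1282 of all 11337 genes. In set 2, 3 of 7 did, against 1270 of all genes. In set 2, 5 genes were lower in A100-FMT without overlap, the lowest adjusted p being 0.178 for Xdh, and 1 gene was called without either Sa library of set 1.

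Averages over both sets called 0 of 7 genes in limma in each of the 5 comparisons with Sa or Con-FMT. Of all genes tested, 0.75%, 0.132% and 0.891% were called for Con-FMT, A10-FMT and A100-FMT against Sa. At an unadjusted p under 0.05 there were 3, 5 and 2 of the 7, against 2659, 2260 and 2987 of all 11337 genes. Against Con-FMT, 0% and 0.123% of all genes were called for A10-FMT and A100-FMT. There, 1 and 0 of the 7 were at an unadjusted p under 0.05, against 697 and 1097 of all genes. Without Sa set 1 replicate 1, 2 genes were called for Con-FMT and 3 for A10-FMT against Sa, and without replicate 3, 0 were for each of the 3 FMT groups in limma. The changes of A10-FMT averaged here were above 0 in set 1 and below 0 in set 2 for all 7 genes.

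Within groups, some of the 8 genes also varied together from library to library. Deviations from the group mean were correlated over the 23 libraries for all 28 pairs of genes, with a two-sided permutation test within groups (100000 permutations) and Benjamini-Hochberg adjustment over the 28 pairs. Of these, 24 were positive with a median r of 0.32, and 3 passed the threshold. All 3 involved the purine carrier Slc28a2, a low gene that shares 51% of its 31-base words with Slc28a2b, and Nt5e was barely detected. It went with Nt5e (r = 0.85, rho = 0.87, permutation p = 0.00035, adjusted p = 0.00658), with Enpp3 (r = 0.83, rho = 0.80, permutation p = 0.00047, adjusted p = 0.00658) and with Ada (r = 0.76, rho = 0.71, permutation p = 0.00163, adjusted p = 0.0152). By rho, the adjusted p of these pairs were 0.00644, 0.0168 and 0.0451. Without the 2 libraries farthest from the median of the first gene, r was 0.83, 0.82 and 0.70.

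The 3 relations held within each set as values. In set 1 and set 2, r was 0.84 and 0.85 for Nt5e with Slc28a2, 0.79 and 0.87 for Enpp3 with Slc28a2, and 0.79 and 0.78 for Ada with Slc28a2. Pnp had r of -0.02 with Ada, 0.08 with Nt5e, -0.03 with Enpp3 and 0.04 with Slc28a2. Xdh had r of -0.02 with Ada, -0.01 with Nt5e, 0.48 with Enpp3 (adjusted p = 0.14, permutation test) and 0.22 with Slc28a2. Some pairs changed sign between sets, such as Slc28a1 with Pnp (r = -0.86 in set 1, 0.71 in set 2; pooled 0.05). With Sa set 1 replicate 1 or replicate 3 left out, 5 pairs passed. All libraries share the normalization of the deposited table.

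**Figure D3:**
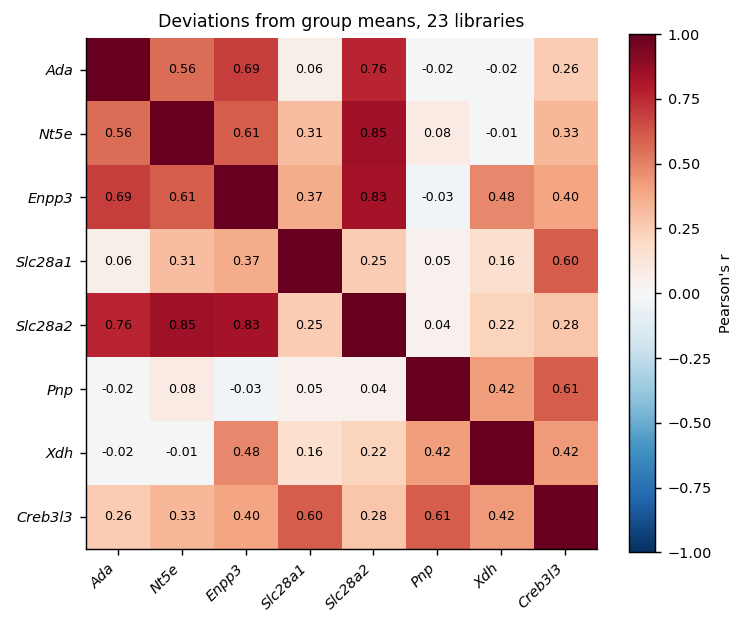
Pearson's r (colour and number in each square) between the 8 genes, over the deviations of log2(FPKM + 1) from the group means in 23 libraries. Ada, Nt5e, Enpp3 and Slc28a2 form a block with r of 0.56 to 0.85, while r of these 4 with Pnp lies between -0.03 and 0.08. Values of Nt5e and Slc28a2 were low.

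Over all 23 libraries, with the group differences left in, the genes most like each of the 8 were found by Pearson's r on log2(FPKM + 1), as a description. Enpp3, Rhoc and Slc28a2 were closest to Ada (r = 0.90, 0.89 and 0.89). Slc28a2, Aldh4a1 and Apoc2 were closest to Enpp3 (r = 0.93, 0.92 and 0.92), and Enpp3, Ada and Tmprss15, which encodes enteropeptidase of the brush border, were closest to Slc28a2 (r = 0.93, 0.89 and 0.87). Ada and Slc28a2 were thus each among the other's 3 closest of all genes tested, as were Enpp3 and Slc28a2, while Ada was not among those of Enpp3. Ly6m, Slc28a2 and Ets1 were closest to Nt5e (r = 0.85, 0.81 and 0.78).

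The other 4 genes had different neighbours. They were Slc5a4b, Slc47a1 and Plekhf1 for Slc28a1 (r = 0.91, 0.90 and 0.90), and Pxdc1, Ido1 and 2010003K11Rik for Pnp (r = 0.93, 0.91 and 0.89). Il33, Vmp1 and Acsl5 were closest to Xdh (r = 0.93, 0.92 and 0.92), and Ormdl3, Ltb4r1 and Cidec to Creb3l3 (r = 0.94, 0.93 and 0.93). No gene among these 12 was shared between the 4.

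The rest of the nucleotide pathway was described in A10-FMT against Con-FMT of set 1, where 5.2% of all genes tested rose and 11.5% fell. Of 12 tested ectonucleotidases and phosphatases, 3 rose and 0 fell. Alpi, the intestinal alkaline phosphatase and the most abundant of them (343 FPKM), rose by 0.82 ± 0.12 (adjusted p = 0.000931), and Entpd5 by 0.30 ± 0.08 (adjusted p = 0.0205). Akp3, a close copy of Alpi, rose from 22.1 ± 11.9 to 129 ± 53.7 FPKM (SD, n = 3; adjusted p = 0.00534 in limma). Of 5 tested nucleoside transporters and adenosine receptors, the adenosine receptor gene Adora2b rose (0.57 ± 0.16, adjusted p = 0.0214) and 0 fell. The other main carriers pointed down without passing, Slc28a3 at -0.20 ± 0.07 (adjusted p = 0.0683) and the equilibrative carrier Slc29a1 at -0.32 ± 0.11 (adjusted p = 0.0513).

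Further along the path, 3 of 21 tested genes of purine breakdown, salvage and urate rose and 3 fell, the latter a share near the 11.5% of all genes. Gda, the guanine deaminase that feeds guanine into xanthine, rose by 0.62 ± 0.20 (adjusted p = 0.0391). Mocos, which completes the cofactor of xanthine dehydrogenase, rose by 0.29 ± 0.06 (adjusted p = 0.00534). Urah rose and Urad, Dck and Ampd2 fell; of these genes, Mocos, Urah, Dck and Ampd2 were named after their values were seen. The salvage gene Aprt, the most abundant (189 FPKM), and Nt5c were not called. Of 9 tested genes of pyrimidine nucleosides, the uridine phosphorylase gene Upp1 rose from 199 ± 11.4 to 393 ± 52.4 FPKM (0.97 ± 0.16, adjusted p = 0.00122), and the kinase genes Uck2 and Tk1 fell (-0.36 and -0.41, adjusted p = 0.00329 and 0.0229).

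Of 13 tested genes of purine synthesis, 6 fell and 0 rose in A10-FMT against Con-FMT of set 1, among them Atic (-0.38 ± 0.09, adjusted p = 0.00754) and Impdh2 (-0.33 ± 0.09, adjusted p = 0.0171), while Adss was not called. In A10-FMT of set 2 against set 1, 9 of the 13 rose, with Atic at 0.46 ± 0.09 (adjusted p = 0.001) and Impdh2 at 0.42 ± 0.09 (adjusted p = 0.00219), and 0 fell. Of all genes tested, 21.8% rose and 8.62% fell in that comparison. By trimmed-mean scaling these counts were 5 and 6, and no called gene of the list changed direction. Without A10-FMT set 1 replicate 3 they were 2 and 6.

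Genes that mark position on the villus were set beside the 8 genes, since the choice of the 8 rests on position. Of 8 other villus-tip genes, 3 rose and 1 fell in A10-FMT against Con-FMT of set 1, where 5.2% of all genes rose and 11.5% fell. The apolipoprotein gene Apoa4 rose by 0.87 ± 0.17 (adjusted p = 0.00316), Klf4, named after its values were seen, by 0.61 ± 0.12 (adjusted p = 0.00259) and the keratin gene Krt20 by 0.47 ± 0.11 (adjusted p = 0.00695), while Egfr fell by 0.44 ± 0.08 (adjusted p = 0.00169). Summed over the list, the level was 2428 to 3043 FPKM in A10-FMT set 1, 1552 to 1872 in Con-FMT set 1 and 1121 to 1536 in A10-FMT set 2. Group means of 7 of the 8 genes had the same order over these 3 groups, and Pnp had not, with 182 FPKM in Con-FMT set 1 and 185 in A10-FMT set 2. The sums in A10-FMT set 1 were above those of Con-FMT set 1 and A10-FMT set 2 without overlap. Those of A100-FMT set 1 (2045 to 2453 FPKM) overlapped A10-FMT set 1 and were above Con-FMT set 1. Between A100-FMT and Con-FMT of set 1, 0 of the 7 genes tested were called.

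The rise was not limited to tip genes. Of 12 tested mid-villus absorptive genes, 7 rose and 0 fell, with Fabp2, a fatty acid binding protein gene, up by 1.08 ± 0.19 (adjusted p = 0.00159), and their sum was 7134 to 8164 FPKM in A10-FMT set 1 against 4631 to 4942 in Con-FMT set 1. Of 7 villus-bottom genes 1 rose and 0 fell, where 5.2% of all genes rose. Of 10 crypt proliferation genes 7 fell and 0 rose, where 11.5% of all genes fell, with Mcm5 at -0.36 ± 0.10 (adjusted p = 0.0261) and Aurkb at -0.37 ± 0.08 (adjusted p = 0.00652), and their sum was 510 to 545 FPKM against 612 to 652. By trimmed-mean scaling 3 of the 10 fell, and without A10-FMT set 1 replicate 3, 2 fell.

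In A10-FMT of set 2 against set 1, all 10 crypt proliferation genes rose, where 21.8% of all genes rose and 8.62% fell. There, 9 of 12 mid-villus genes fell, and of the 8 other tip genes 5 fell and 1 rose. By trimmed-mean scaling 7 of the 10 crypt genes rose, and without A10-FMT set 1 replicate 3, 9 rose. In both comparisons of A10-FMT, the 7 genes tested had the direction of most called genes of mid-villus and tip and the opposite one to called genes of crypt proliferation. Genes of the proximal and distal small intestine differed too, but Fabp1, Slc5a1 and Lct of the proximal list were also in the mid-villus list. Of 5 proximal genes 1 rose and of 6 distal genes 3 rose in A10-FMT against Con-FMT of set 1. There, 5.2% of all genes rose, and 0 fell in either list. Of 7 goblet cell genes 2 rose. Of the 3 immune and 2 smooth muscle genes tested, 0 were called in limma. The summed immune genes had their highest group mean in Con-FMT set 2 (12.4 to 20.8 FPKM), as did Nt5e. They summed to 10.6 to 14.9 FPKM in A10-FMT set 1 and 9.51 to 10.4 in A10-FMT set 2. The part of these other genes in the levels of the 8 genes was not tested.

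**Figure D4:**
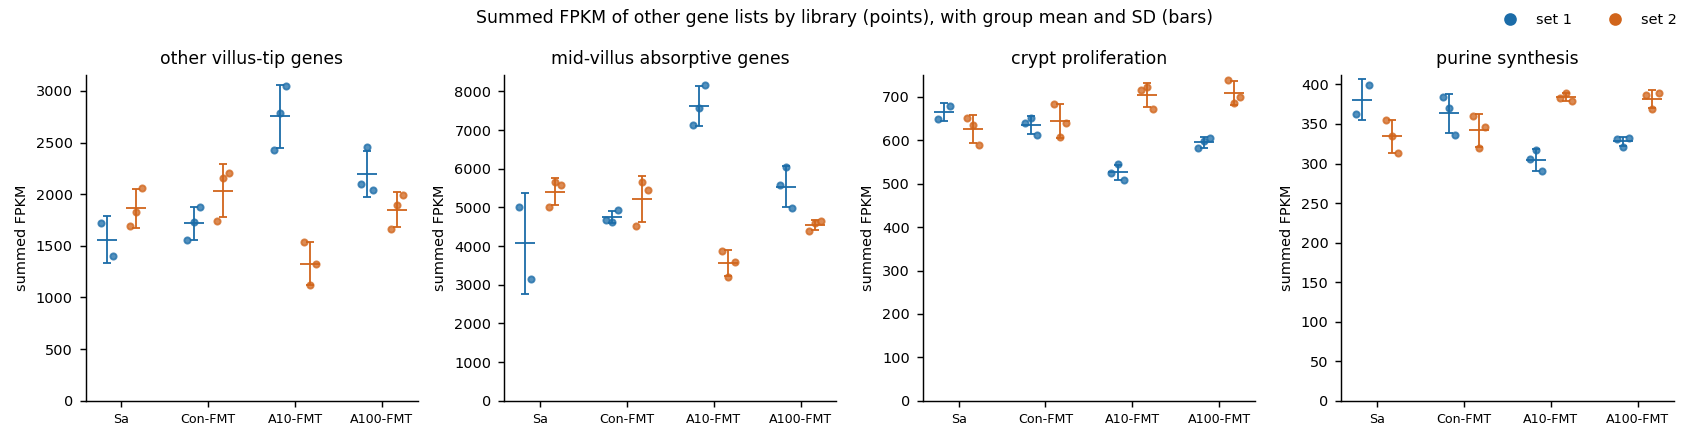
Summed FPKM (vertical axis) of 4 other gene lists in the 4 treatments (horizontal axis), set 1 in blue and set 2 in orange, with points for libraries and bars for mean and SD. A10-FMT set 1 has the highest mean for villus-tip genes (2428 to 3043 FPKM) and mid-villus genes (7134 to 8164). It has the lowest mean for crypt proliferation genes (510 to 545). For villus-tip genes it overlaps A100-FMT set 1 (2045 to 2453).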

How the data were processed

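Small intestine RNA of 23 libraries was analysed from the deposited table. The authors extracted total RNA with TRIzol for Illumina sequencing, and their methods name RPKM and DEGseq. The deposited values are FPKM with 2 decimals, on mm10 per the submitters' processing notes. Aligner, counter and strandedness are not given in the sources used here. No read counts were used, so depth is unknown and no count model was fitted.

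The table has 24 library columns, assigned by sample title, and 1 of them entered only as an alternative for Sa set 1 replicate 3. Values were analysed as log2(FPKM + 1) with R 4.3.3 and limma 3.58.1 (1 mean per group for all 8 groups, eBayes with trend). Tests covered the 11337 genes whose mean reached 1 FPKM, and p-values were adjusted by the Benjamini-Hochberg method over them (threshold 0.05). Fold changes on this scale understate the change of low genes. Libraries were treated as 1 mouse each, which the study's methods do not state, and nothing says that mice were housed apart. The p-values thus measure the spread between these libraries. Correlations and figures used Python 3.11.15, numpy 2.4.6, scipy 1.17.1 and matplotlib 3.10.9. The scripts were tested on simulated data.

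The 8 genes and all lists were chosen with earlier results of these data known. All 8 genes are named. Of other lists, genes are named from the 3 with the highest mean and the 2 largest increases and decreases called in an FMT group against Sa, and for likeness the 3 with the highest r. Alternatives were another pseudocount, filters, 2 scalings, a replicate block, array quality weights, groups fitted alone, another column for 1 library and each library left out. The table holds no columns of the authors' own comparisons.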

Additional observations from a re-analysis of the deposited data

Results flagged for a closer look

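The change in A10-FMT differed between the sets for all 7 genes tested, by a limma test of the difference itself. Against Sa, the log2 change in set 2 minus that in set 1 (± SE) was -1.87 ± 0.47 for Ada, -1.98 ± 0.34 for Enpp3, -1.11 ± 0.32 for Slc28a1, -1.66 ± 0.43 for Slc28a2, -0.49 ± 0.10 for Pnp, -1.07 ± 0.16 for Xdh and -0.78 ± 0.19 for Creb3l3, with adjusted p of 0.000431 to 0.0153. Against Con-FMT it was -2.60 ± 0.44 for Ada, -2.04 ± 0.32 for Enpp3, -1.19 ± 0.30 for Slc28a1, -1.94 ± 0.41 for Slc28a2, -0.52 ± 0.09 for Pnp, -0.82 ± 0.15 for Xdh and -0.96 ± 0.17 for Creb3l3, with adjusted p of 0.00049 to 0.0104. Both contrasts use the same A10-FMT libraries, and that against Con-FMT was chosen after the data had been seen. Of all genes tested, 10.6% were called lower in the contrast against Sa and 6.7% in that against Con-FMT. With array quality weights, no gene of the 7 was called in the contrast against Sa. For A100-FMT against Sa, Xdh differed between the sets by -0.82 ± 0.16 (adjusted p = 0.00738), and the other 6 genes did not pass, where 13.5% of all genes were called lower. Groups of 2 or 3 libraries are too small for a check of single outlying libraries.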

How the results depend on the processing

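Of 46 changes of single genes, 1466 values were recomputed; 0 changed direction, 102 lost the threshold and 19 passed it. Of the counts of genes called among the 7 tested, A10-FMT vs. Con-FMT of set 1 (7) gave 3 to 7 and A10-FMT vs. Sa of set 1 (6) gave 4 to 6 with 1 library left out. Left out in turn, libraries gave 0 to 2 for A10-FMT vs. Con-FMT of set 2, 0 to 4 for A100-FMT vs. A10-FMT of set 1, 0 to 2 for A100-FMT vs. Sa of set 1, 0 to 1 for Con-FMT vs. Sa of set 1, 0 to 1 for A100-FMT vs. Con-FMT of set 2, 0 to 3 for A10-FMT and 0 to 2 for Con-FMT vs. Sa over both sets, 1 to 2 for set 2 vs. set 1, 6 to 7 for A10-FMT, 1 to 2 for A100-FMT and 0 to 1 for Con-FMT vs. Sa between the sets, and 3 to 5 correlated pairs. Without Sa set 1 replicate 1, 3 and 2 genes were called for A10-FMT and Con-FMT vs. Sa over both sets. With array quality weights, counts were 0 for Con-FMT, A10-FMT and A100-FMT vs. Sa of set 1, 1, 2 and 1 for the same in set 2, 5 for A10-FMT vs. Con-FMT and 1 for A100-FMT vs. Con-FMT of set 2, 0 for A10-FMT and for A100-FMT vs. Sa between the sets and 0 for set 2 vs. set 1. With groups fitted alone they were 0 for each FMT group vs. Sa of set 1, 1 for A10-FMT vs. Sa and 0 for A10-FMT vs. Con-FMT of set 2, 0 for A100-FMT vs. A10-FMT of set 1 and 0 for A100-FMT vs. Sa between the sets. With the column of the description they were 0 for Con-FMT vs. Sa of set 1, 2 for A10-FMT and 1 for A100-FMT vs. Con-FMT of set 2, 4 for A100-FMT vs. A10-FMT of set 1, 2 for set 2 vs. set 1 and 5 for correlated pairs. With all genes tested they were 0 for Con-FMT vs. Sa of set 1, A10-FMT vs. Con-FMT of set 2 and A100-FMT vs. A10-FMT of set 1. With a mean of at least 5 FPKM they were 2 for A10-FMT vs. Con-FMT of set 2 and 2 for A100-FMT vs. Sa between the sets. Quantile normalization gave 2 for A100-FMT vs. Sa of set 1, A10-FMT vs. Con-FMT of set 2, A100-FMT vs. Sa between the sets and set 2 vs. set 1, and 1 for A100-FMT vs. A10-FMT of set 1. Trimmed-mean scaling gave 0 for Con-FMT vs. Sa of set 1 and 2 for A10-FMT vs. Con-FMT of set 2 and for set 2 vs. set 1. Same-numbered libraries did not deviate together (r from -0.159 to 0.181 in set 1, -0.352 to 0.319 in set 2). The replicate block gave 0 for Con-FMT vs. Sa of set 1, A10-FMT vs. Con-FMT of set 2 and set 2 vs. set 1, and 7 for A10-FMT vs. Con-FMT of set 1. The cause of these differences was not tested. Precision is limited by 2 or 3 libraries per group and unknown depth.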
